A study of Bienertia sinuspersici with 9 samples.

Results

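Leaves of Bienertia sinuspersici (hereafter Bienertia), a species that runs the whole C4 pathway inside single cells, were compared between 2 stages of growth. Intermediate leaves measured 0.3 to 0.7 cm, and mature leaves exceeded 2 cm. The comparison took every library that the labels assign to these stages, 3 intermediate and 3 mature, which makes 6 of the 9 libraries of the study. The other 3 came from young leaves shorter than 0.3 cm and entered the estimate of the spread and the contrast of both growth steps. All plants were wild type, grown in a greenhouse at a few months of age, with no treatment named in the labels. Mature tissue came from the leaf tip alone, so stage and leaf part cannot be told apart in any value below. The study calls its replicates biological, but how many plants went into a library, and whether replicates came from different plants, is not stated. P-values therefore measure only the spread between these libraries.

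In single-cell C4 photosynthesis (SCC4), a chlorenchyma cell holds chloroplasts of 2 kinds, one kind at the cell periphery and one in a central compartment packed with mitochondria. Phosphoenolpyruvate carboxylase (PEPC) fixes bicarbonate near the periphery into a C4 acid, NAD-malic enzyme (NAD-ME) releases the CO2 in mitochondria of the central compartment, and Rubisco fixes it again there. Pyruvate, orthophosphate dikinase (PPDK) rebuilds the acceptor of the first step. The chloroplasts of young Bienertia leaves are of a single kind, and both the compartments and the chloroplast types take shape as the leaf grows.

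Expression was read as TPMTMM, the abundance of a transcript (TPM, its share of all transcripts of a library, on a common total) scaled between libraries by the trimmed mean of M values, for 11709 unigenes of a transcriptome assembled from the reads. A unigene here is 1 assembled transcript, and 209 of the 11709 have a gene name that could be used. Of these, 14 are named in the study's text and 195 are best hits in Arabidopsis. The roles given for hits are those known in Arabidopsis. The named hits fill the head of a table sorted by Arabidopsis locus, so level and change had no part in which were named. The lists below and their members were chosen with earlier results of these data known. A unigene was called risen or fallen where the adjusted p was under 0.05, from limma on log2(TPMTMM + 1) with Benjamini-Hochberg adjustment over the 11709 unigenes. All adjusted p-values below come from this fit unless another is named. TPM keeps no trace of the number of reads, so the reads behind a single value are unknown.

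From intermediate to mature leaves, 1886 unigenes rose and 1858 fell, which together is 32.0% of those tested (16.1% rose and 15.9% fell). The changes were mostly small. The median size was 0.76 on the log2 scale among the unigenes that rose and -0.69 among those that fell. Rises of 2-fold or more numbered 582 (4.97%) and falls of that size 551 (4.71%). At 8-fold or more, 14 rose and 29 fell. All 3 mature libraries lay above all 3 intermediate libraries for 2553 unigenes (21.8%) and below them for 2754 (23.5%). The direction of these counts depends on the scaling. The median change of all unigenes was -0.00 in TPMTMM, -0.11 in TPM scaled by the upper quartile and -0.43 in TPM with no scaling between libraries. The split moved with it, to 1596 risen and 2635 fallen with the upper quartile and to 772 risen and 5647 fallen with no scaling. TPMTMM as deposited also rounds each TPM and adds 1 to it. With neither of these, TPM times the same library factors gave 1811 risen and 2223 fallen, so the near-even split rests in part on them. Without intermediate 2, 1237 unigenes rose and 1322 fell. With each of the 6 libraries left out in turn, 1146 of the rises and 1186 of the falls passed every time.

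Libraries of the same stage did not lie equally close. The mean absolute log2 difference over all unigenes was 0.138 between intermediate 1 and intermediate 2, but 0.310 and 0.307 from these to intermediate 3. Mature 2 and mature 3 differed by 0.222, and mature 1 stood at 0.371 and 0.439 from them. Between the stages the 9 pairs ranged from 0.434 to 0.596, so that the mature pair farthest apart (0.439) overlapped the closest pair of both stages. Some results of the step from intermediate to mature leaves that rest on intermediate 3 or mature 1 are given below with and without them. Others, such as the rises of PSAD2 and AT1G01180 and the share of the most abundant unigenes, are given only with all libraries. The step from young to intermediate leaves and the contrast of both steps were fitted only with all libraries.

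Transcripts were concentrated in fewer unigenes in mature leaves. Intermediate leaves had 34084, 34909 and 33724 of the 36907 unigenes of the TPM table at 1 TPM or more, and mature leaves had 29526, 31004 and 32089. The 100 most abundant unigenes took 24.7, 24.6 and 29.3% of all TPM in intermediate leaves and 36.7, 36.7 and 38.5% in mature leaves. The stages overlapped in neither measure. Both measures use TPM with no scaling between libraries, in which the median tested unigene fell by 0.43 on the log2 scale. TPM have a common total per library, so the 2 measures are not independent. The means were 34239 ± 608 and 30873 ± 1287 unigenes (SD, n = 3), and the share was higher by 11.1 percentage points in mature leaves, each with p = 0.1 in a two-sided exact permutation test, also after adjustment over both, which is the lowest that 3 libraries against 3 can reach. The read depth of a library was not part of this comparison, and its part in the number of unigenes was not tested.

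Abundant unigenes were also set apart by their level in a stage other than mature, since a mean that includes the mature libraries selects for unigenes that are high there, a choice made after seeing the data. By the young libraries, which have no part in the difference, 39 unigenes had a mean of 1000 TPMTMM or more, and of these 19 (48.7%) rose and 6 (15.4%) fell. From 100 to 1000 TPMTMM in young leaves, 164 of 843 rose and 233 fell. Between 10 and 100, 1075 of 7170 rose and 1276 fell, and under 10, 628 of 3657 rose and 343 fell. By the intermediate libraries, which do enter the difference, 35 of the 58 unigenes with a mean of 1000 or more rose and 4 fell. The counts at the top depend on the scaling. With none between libraries 8 of the 39 rose and 12 fell, beside 772 and 5647 of all 11709 unigenes. The median log2 change of the 39 was 0.71 in TPMTMM and 0.28 with no scaling, against -0.00 and -0.43 for all unigenes. With the upper quartile 19 of the 39 rose and 8 fell. In TPMTMM without mature 1, 16 of the 39 rose and 8 fell. PEPC1, PPDK and PSAD2 were the named unigenes among the 39.

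**Figure D1:**
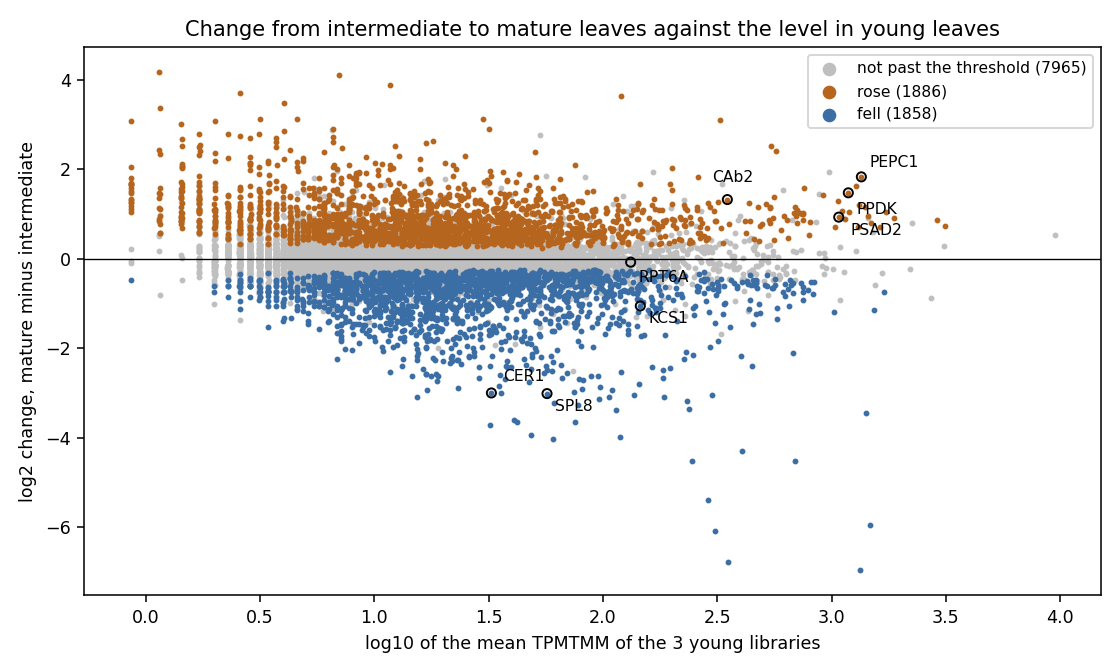
Each point is 1 of 11709 unigenes, placed by the log10 of its mean TPMTMM in the 3 young libraries and by its log2 change from intermediate to mature leaves, with the 1886 that rose in brown, the 1858 that fell in blue and the other 7965 in grey. Of the 39 unigenes with a young mean of 1000 or more 19 rose and 6 fell. The largest fall reaches -6.97.

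Most of the C4 unigenes examined here rose. They are those that the study's text gives with an identifier. Other C4 genes that it names, such as ALA-AT2, PPT1 and BASS2, were not examined. Of 9 C4 cycle enzymes, 8 rose and none fell, with a median log2 change of 1.09 against -0.00 for all unigenes, and 2 of 3 transporters rose (16.1% of all unigenes rose). In the 3 libraries of each stage the 9 enzymes together held 1.17 ± 0.226% (SD, n = 3) of all TPM in intermediate leaves and 2.16 ± 0.108% in mature leaves. All 9 enzymes had every mature library above every intermediate one. With intermediate 3 or mature 1 left out, 8 of 9 still rose, and 7 of the 8 passed with each of the 6 libraries left out. With no scaling between libraries 6 of the 9 enzymes and none of the transporters rose, beside a median unigene that fell by 0.43 on the log2 scale. The study singled out these unigenes in the same libraries, so the list is not independent evidence of its direction.

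The 2 most abundant and most changed of these C4 unigenes, and CAb2, are shown by the primers that the study designed for PCR. These primers tie a unigene here to a test tube. They are written 5′ to 3′ with forward and reverse as the study names them. The values in this text come from sequencing and not from these primers.
PEPC1 forward: cccgctttgttgagtacttcc
PEPC1 reverse: gcttccgatattcatgcgtcc
PPDK forward: gggattggctttctcttaatgga
PPDK reverse: aggtggtgaaagcggttcttt
CAb2 forward: acgtggcagctgcaaagata
CAb2 reverse: tgtcactggtaccgccaatata

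PEPC1 (BS15679_c0_g1_i1), the carboxylase of the first C4 step, had 2230.0, 2274 and 3959.9 TPMTMM in the intermediate libraries and 9098, 9965 and 10033 in the mature ones. The means were 2821 ± 986 and 9699 ± 521 (SD, n = 3), which is 3.44-fold higher in mature leaves (log2 change 1.83, SE 0.24, adjusted p = 0.00079). Among named unigenes that averaged 10 TPMTMM or more with stages apart, PEPC1 had the largest rise. Intermediate 3 stood well above intermediate 1 and 2 and still below every mature library, and the log2 change lay between 1.69 and 2.10 with any 1 of the 9 libraries left out. Ranked by TPMTMM among the 11709 unigenes, PEPC1 stood at ranks 10, 10 and 5 in intermediate and 5, 2 and 4 in mature leaves. Its share of all TPM was 0.299 ± 0.0842% and 0.772 ± 0.0361% (SD, n = 3).

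PPDK (BS50819_c1_g1_i1), which regenerates phosphoenolpyruvate, had 2171, 2105 and 3525 TPMTMM in intermediate and 6864, 7105 and 7123 in mature leaves. The mature libraries were nearly equal, at 7031 ± 145 (SD, n = 3), and 2.70-fold above the intermediate mean of 2601 ± 802 (log2 change 1.48, SE 0.22, adjusted p = 0.00133). NAD-ME2 (BS38916_c0_g1_i1), the mitochondrial decarboxylase, had 1112, 1084 and 1928 TPMTMM and then 2587, 2854 and 2629.9. Here too intermediate 3 was the highest of its stage, and the stages did not overlap (log2 change 1.02, SE 0.22, adjusted p = 0.00778). Together PEPC1 and PPDK took 0.575 ± 0.151% of all TPM in intermediate and 1.33 ± 0.0488% in mature leaves.

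Both carbonic anhydrases of the beta class, which supply bicarbonate to PEPC, rose. CAb2 (BS7750_c0_g1_i10) had 547, 516 and 732 TPMTMM in intermediate and 1617, 1498 and 1347 in mature leaves (log2 change 1.33, SE 0.16, adjusted p = 0.00046). CAb1 (BS301_c2_g1_i2) had 713, 756 and 914 TPMTMM and then 1535, 1317 and 1105, a smaller rise (log2 change 0.73, SE 0.16, adjusted p = 0.00997). In intermediate leaves CAb1 was the more abundant of the pair in every library, and in mature leaves CAb2 was. Both aspartate aminotransferases, which interconvert oxaloacetate and aspartate, rose by a like amount. ASP-AT2 (BS1932_c0_g1_i7) had 833, 847 and 1187 TPMTMM and then 2562, 2070.3 and 1748 (log2 change 1.16, SE 0.19, adjusted p = 0.00228). ASP-AT1 (BS6226_c0_g1_i3) had 366, 345 and 537 TPMTMM in intermediate and 935, 884 and 787 in mature leaves (log2 change 1.09, SE 0.17, adjusted p = 0.00172).

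The malate dehydrogenases, which interconvert malate and oxaloacetate, changed least among the C4 cycle enzymes. mMDH2 (BS6222_c0_g1_i2), the mitochondrial form, had 856, 765 and 956 TPMTMM in intermediate and 1135, 1228 and 1184 in mature leaves (log2 change 0.47, SE 0.12, adjusted p = 0.0181). Its call was lost without intermediate 1, intermediate 2 or mature 2, where the adjusted p ranged from 0.00995 to 0.0731 over the 6 fits with 1 library left out, and in TPM with no scaling its log2 change was 0.03. cMDH1 (BS95047_c2_g1_i1) had 617, 563 and 545 TPMTMM and then 723, 741 and 649. The cMDH1 libraries of both stages did not overlap, but the difference did not pass (log2 change 0.29, SE 0.11, adjusted p = 0.0714).

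Among the transporters, TPT (BS25442_c1_g1_i1), the triose phosphate/phosphate translocator of the chloroplast envelope, had 832, 793 and 754 TPMTMM in intermediate and 1657, 1299.8 and 1142 in mature leaves. All mature libraries lay above all intermediate ones (log2 change 0.77, SE 0.20, adjusted p = 0.0173), although the call was lost without intermediate 2 (adjusted p = 0.054, from 0.0181 over the 6 fits with 1 library left out). UCP1 (BS2112_c0_g1_i4), a mitochondrial carrier that exchanges amino acids, had 245, 233 and 318 TPMTMM and then 384, 442 and 424 (log2 change 0.66, SE 0.14, adjusted p = 0.00654). DTC (BS12288_c0_g1_i2), the dicarboxylate/tricarboxylate carrier of mitochondria, had 309, 299 and 339 TPMTMM in intermediate and 391, 332 and 304 in mature leaves. The DTC values of the stages overlapped (log2 change 0.11, SE 0.12, adjusted p = 0.532).

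**Figure D2:**
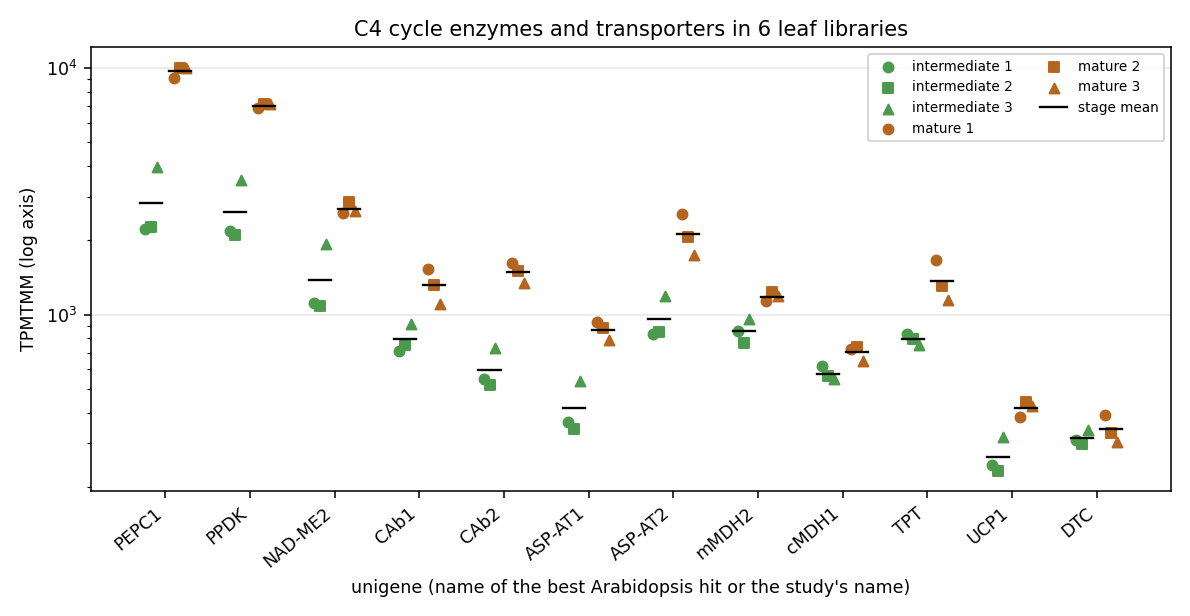
TPMTMM on a log axis of 9 C4 cycle enzymes and 3 transporters in each intermediate (green) and mature (brown) library, with the marker shape giving the replicate number and the bar the mean of 3 libraries. PEPC1 and PPDK lie highest and farthest apart, intermediate 3 (green triangle) is the highest intermediate library for all enzymes but cMDH1, and the stages overlap for DTC.

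The step before, from young to intermediate leaves, shares the 3 intermediate libraries with this one, and the 2 steps are given side by side. In the first step 2.99% of all unigenes rose and 2.76% fell, and of the 12 C4 unigenes 7 rose. The adjusted p of these 7 lay close under the threshold, from 0.0297 to 0.047. Intermediate 3 was the highest intermediate library in each of the 7, and the first step was not fitted without it. PEPC1 had a log2 change of 1.01 in the first step (adjusted p = 0.047) and 1.83 in the second. PPDK had 1.10 (adjusted p = 0.0297) and then 1.48, and CAb2 0.76 (adjusted p = 0.0322) and then 1.33. CAb1 had nearly the same change in both, 0.71 and 0.73. Across the 12 C4 unigenes the second step minus the first ranged from -0.33 for DTC to 0.82 for PEPC1 on the log2 scale. None of the 12 passed the test of this difference in the same limma fit (lowest adjusted p = 0.378, and 0 of 12 at an unadjusted p under 0.05), a contrast chosen after seeing the data that 265 of all unigenes passed (2.26%, of which 0.743% had the higher and 1.52% the lower second step).

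RPT6A, a proteasome subunit, and SAND are the genes that the study used as references in PCR. It took them as not differentially expressed in these libraries, so their small change here is no separate evidence. It also cites earlier work on their suitability in other plant species. RPT6A had 132, 123 and 145 TPMTMM in intermediate and 121, 134 and 124 in mature leaves. SAND had 24.9, 27.3 and 23.98 and then 23.4, 24.6 and 26.1. For both the stages overlapped, with log2 changes of -0.08 (SE 0.09) and -0.04 (SE 0.09). In TPM with no scaling both fell, by 0.51 and 0.47 on the log2 scale, close to the fall of 0.43 of the median unigene.

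Of 6 unigenes for photosystem and chlorophyll proteins, 4 rose and none fell, with a median log2 change of 0.60 (16.1% of all unigenes rose). With no scaling between libraries 1 of the 6 rose and none fell, with a median of 0.17. PSAD2, a subunit of photosystem I, had 1423, 1484 and 1784 TPMTMM in intermediate and 3747, 2849 and 2455 in mature leaves, the highest being mature 1 (log2 change 0.93, SE 0.21, adjusted p = 0.0105). LPA1, an assembly factor of photosystem II, had 18.7, 17.3 and 20.98 TPMTMM and then 35.8, 34.5 and 32.6 (log2 change 0.82, SE 0.10, adjusted p = 0.000485). PORC, which reduces protochlorophyllide, had 303, 275 and 269.7 TPMTMM and then 632, 432 and 394. Its mature libraries were spread but all above the intermediate ones (log2 change 0.75, SE 0.21, adjusted p = 0.0236), and the call was lost without any 1 intermediate library (adjusted p from 0.0212 to 0.0727 over the 6 fits with 1 library left out). HCAR, an enzyme of the chlorophyll cycle, also rose (log2 change 0.44, SE 0.11, adjusted p = 0.0175), but not without intermediate 1 or intermediate 2 (adjusted p up to 0.0606).

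The remaining pair of that list, CPX1 and PSB27-1, did not pass in this step. CPX1, coproporphyrinogen oxidase of chlorophyll and heme synthesis, had 203, 187 and 244 TPMTMM in intermediate and 279, 266 and 238 in mature leaves (log2 change 0.31, SE 0.12, adjusted p = 0.0772). PSB27-1, a photosystem II repair protein, had 189, 182 and 276 and then 236, 292 and 255 TPMTMM (log2 change 0.29, SE 0.16, adjusted p = 0.203). For both, intermediate 3 reached into the range of mature leaves, and without it the adjusted p was 0.0205 and 0.0143, the lowest of the 6 fits with 1 library left out. CPX1 had risen in the step from young leaves (log2 change 0.59, adjusted p = 0.0302).

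Of 8 other plastid proteins 4 rose and 2 fell, beside 16.1% and 15.9% of all unigenes. With no scaling 1 rose and 2 fell, and 2 of the 4 rises and both falls passed with each of the 6 libraries left out. PFC1, a methylase of plastid ribosomal RNA, had 20.4, 18.2 and 19.98 TPMTMM in intermediate and 33.3, 35.7 and 36.5 in mature leaves (log2 change 0.82, SE 0.11, adjusted p = 0.000915). FZL, a membrane-remodelling protein of the thylakoids, rose from 15.8 ± 0.306 to 22.2 ± 1.26 TPMTMM (SD, n = 3; log2 change 0.46, SE 0.09, adjusted p = 0.00597). ISA2, an isoamylase of starch synthesis, and D27, a carotenoid isomerase, rose as well, but mature 1 of ISA2 and mature 3 of D27 lay just under intermediate 3. The ISA2 call was lost without intermediate 1, intermediate 2, mature 2 or mature 3 (adjusted p up to 0.0787), and the D27 call without any 1 of the 9 libraries other than intermediate 3 (adjusted p up to 0.16).

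PDH-E1_ALPHA and AT1G04570 were the plastid falls. PDH-E1_ALPHA encodes a subunit of the plastid pyruvate dehydrogenase, which feeds carbon into fatty acid synthesis, and had 179, 156 and 154 TPMTMM in intermediate and 109, 92.3 and 93.97 in mature leaves (log2 change -0.73, SE 0.11, adjusted p = 0.0017). AT1G04570 stood at 3.73 ± 0.235 and 2.51 ± 0.0842 TPMTMM (SD, n = 3; log2 change -0.43, adjusted p = 0.0115). CLPP5, a subunit of the plastid Clp protease, had 196 ± 23.02 and 233 ± 8.57 TPMTMM and did not pass (adjusted p = 0.112), and neither did AT1G01320 (adjusted p = 0.281).

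**Figure D3:**
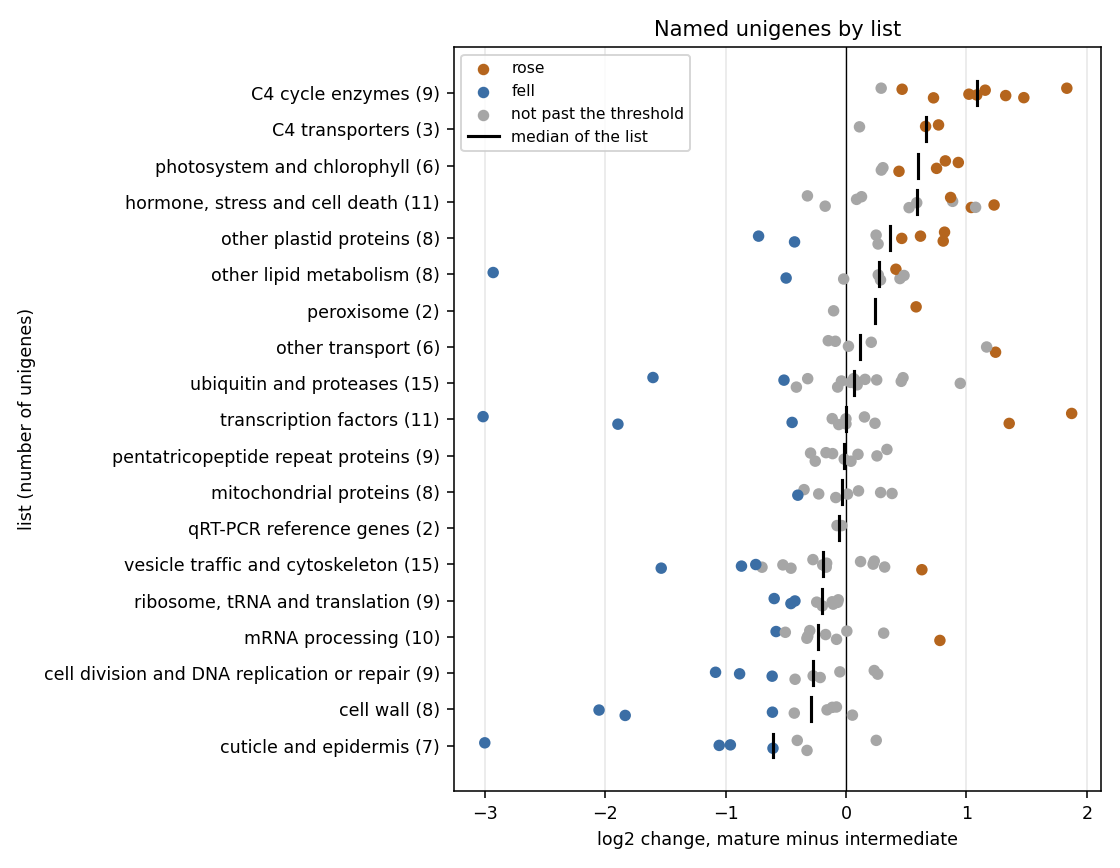
Log2 change from intermediate to mature leaves of the named unigenes, 1 point per unigene, in 19 lists ordered by their median (black bar), with brown for rose, blue for fell and grey for neither. C4 cycle enzymes lie highest, with a median of 1.09, and cuticle and epidermis lowest, with -0.61. In TPM with no scaling between libraries every median would lie lower, as the median unigene does by 0.43.

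Of 7 genes of the cuticle and of epidermal cell shape, 4 fell and none rose, with a median log2 change of -0.61, beside 15.9% of all unigenes that fell. With no scaling between libraries 6 of the 7 fell, beside 5647 of all 11709. All 4 falls passed with each of the 6 libraries left out. CER1, which makes the alkanes of leaf wax, had 45.3, 45.5 and 12.99 TPMTMM in intermediate and 3.70, 2.46 and 2.61 in mature leaves. Intermediate 3 was far below the other intermediate libraries and still above every mature one (log2 change -3.00, SE 0.44, adjusted p = 0.0014), and the log2 change lay between -3.58 and -2.71 with any 1 of the 9 libraries left out. KCS1, an enzyme that elongates fatty acids to very long chains, had 126, 127 and 118 TPMTMM and then 67.8, 54.2 and 56.1, with little spread in either stage (log2 change -1.05, SE 0.12, adjusted p = 0.000473).

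GPAT4, an acyltransferase of cutin synthesis, had 143, 138 and 171 TPMTMM in intermediate and 87.6, 102 and 106 in mature leaves (log2 change -0.61, SE 0.11, adjusted p = 0.00399). AN (ANGUSTIFOLIA), which shapes leaf cells and trichomes in Arabidopsis, had 29.3, 29.1 and 34.96 TPMTMM and then 13.6, 16.001 and 16.97 (log2 change -0.96, SE 0.16, adjusted p = 0.00259). KCS2, a close relative of KCS1, had 162, 149 and 146 and then 136, 113 and 97.9 TPMTMM, which did not pass (log2 change -0.41, SE 0.15, adjusted p = 0.0712), although without mature 1 it did (adjusted p = 0.025), and without young 3 as well. SPI and SBT1.2, a subtilase that limits stomatal density in Arabidopsis, did not pass (adjusted p = 0.266 and 0.358). SBT1.2 had 17.8, 15.5 and 20.98 and then 23.4, 27.1 and 15.7 TPMTMM, and without mature 3 it passed as a rise (adjusted p = 0.0432). Reads of KCS1 and KCS2 could be shared where their sequences are alike, and how they were split was not examined.

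The level of cell type markers is given as a description, since the markers were chosen with results known and are members already described. The 4 chlorenchyma markers (PEPC1, PPDK, PSAD2 and PORC), a sum made up mostly by PEPC1 and PPDK, all rose, from a summed level of 6128 to 9539 TPMTMM in intermediate libraries to 20005 to 20351 in mature ones. Of 4 epidermal markers (KCS1, CER1, GPAT4 and SBT1.2), 3 fell, and the sum went from 323 to 332 down to 180.1 to 186 TPMTMM. Of the pair of markers of dividing cells, TPX2 fell and HTR12 did not pass, with sums of 34.6 to 39.0 and 25.9 to 28.3 TPMTMM. Both belong to the list of 9 described next, where 2 had a positive log2 change. No marker rounded to 0 in any of the 6 libraries. These are bulk leaves, in which fewer cells of a type and less RNA per cell cannot be told apart, and the part of cell makeup in the other results was not tested.

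Genes of the cell cycle and of DNA replication or repair fell or did not pass. Of 9, 3 fell and 0 rose (15.9% of all unigenes fell), with a median log2 change of -0.27, and 6 of the 9 fell with no scaling. BARD1, a partner of BRCA1 in DNA repair, had 9.77, 9.09 and 10.99 TPMTMM in intermediate and 3.70, 4.92 and 3.92 in mature leaves (log2 change -1.08, SE 0.15, adjusted p = 0.001). TPX2, which organises the spindle, had 9.77, 9.09 and 8.99 TPMTMM and then 4.93, 4.92 and 3.92 (log2 change -0.88, SE 0.13, adjusted p = 0.00122). CTF18, of sister chromatid cohesion, fell by 0.61 on the log2 scale (adjusted p = 0.0292), but the call was lost without any 1 intermediate library (adjusted p up to 0.085). HTR12, the centromeric histone H3, had 24.9, 26.4 and 29.97 TPMTMM and then 20.97, 23.4 and 22.2. Every mature library of HTR12 lay below every intermediate one, but the change did not pass (log2 change -0.27, SE 0.10, adjusted p = 0.0659). SWI2 went the other way, at 13.3, 12.7 and 12.99 TPMTMM in intermediate and 14.8, 16.001 and 15.7 in mature leaves. Every mature library of SWI2 lay above every intermediate one, and it did not pass either (adjusted p = 0.0654). Of the 9, 2 had a positive log2 change.

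Of 8 cell wall genes 3 fell and 0 rose (15.9% of all unigenes fell), with a median log2 change of -0.29, and in all 3 the mature TPM rounded to 0 in every library, which is the lowest value the TPMTMM can show. Their log2 changes therefore depend on that floor and are no measure of the full size. CEL2, an endoglucanase, had 7.78, 7.26 and 8.65 TPM before rounding in intermediate leaves and 0.12, 0.19 and 0.20 in mature leaves (log2 change of TPMTMM -2.05, SE 0.22, adjusted p = 0.000318). CSLD5, a cellulose synthase-like protein, had 6.81, 8.11 and 5.41 TPM and then 0.19, 0.41 and 0.41 (log2 change of TPMTMM -1.83, SE 0.15, adjusted p = 9.09e-05). PGA3, a polygalacturonase, had 0.72 to 2.01 TPM in intermediate leaves and was listed at 0 in all mature libraries. Its call was lost in 5 of the 6 fits with 1 library left out, all but that without intermediate 3 (adjusted p up to 0.0969).

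NET3A, an actin-binding protein, and ROPGEF2, an activator of ROP GTPases, went to the same floor. NET3A had 3.75 to 6 TPM in intermediate and 0.12 to 0.33 in mature leaves (log2 change of TPMTMM -1.53, adjusted p = 5.96e-05). ROPGEF2 had 1.76 to 1.94 TPM and then 0.12 to 0.22 (log2 change of TPMTMM -0.75, adjusted p = 0.000949). With VAMP726, a SNARE of vesicle fusion (log2 change -0.87, SE 0.13, adjusted p = 0.00156), they made up the 3 falls among 15 genes of vesicle traffic and cytoskeleton (15.9% of all unigenes fell), where RABD2A rose by 0.63 on the log2 scale (adjusted p = 0.0433). The RABD2A call was lost without any 1 intermediate library, mature 1, mature 2, young 1 or young 2 (adjusted p up to 0.12). Over all unigenes, 253 had a TPM that rounded to 0 in the 3 mature libraries, of which 150 fell, and 28 did so in the 3 intermediate libraries, of which 10 rose.

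Transcription factors held the steepest fall by log2 change among the named unigenes, with that of CER1 (-3.00, SE 0.44) nearly equal. SPL8, of the SBP-box family, had 31.1, 30.01 and 21.98 TPMTMM in intermediate and 2.47, 2.46 and 2.61 in mature leaves (log2 change -3.01, SE 0.13, adjusted p = 5.97e-06). It was already falling from young leaves (log2 change -1.03, adjusted p = 0.00945). ERF023, of the ethylene response factor family, had 31.98, 35.5 and 34.96 TPMTMM and then 7.40, 12.3 and 6.53 (log2 change -1.89, SE 0.20, adjusted p = 0.000304). Of the 11 factors 3 fell and 2 rose, beside 15.9% and 16.1% of all unigenes. The third fall was TAF13, a subunit of the general factor TFIID, by 0.45 on the log2 scale (adjusted p = 0.0355). The TAF13 call was lost in 5 of the 6 fits with 1 library left out, all but that without mature 1, and without young 2 (adjusted p up to 0.117).

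LHY, a core factor of the circadian clock, was one of the 2 factors that rose, and its libraries split within each stage. It had 9.77, 10.002 and 24.97 TPMTMM in intermediate and 18.5, 92.3 and 82.2 in mature leaves, so that mature 1 lay below intermediate 3. The log2 change was 1.87 (SE 0.60, adjusted p = 0.0431), and the call was lost without intermediate 1, intermediate 2, mature 2, mature 3 or any 1 young library (adjusted p up to 0.134). Without mature 1 the log2 change was 2.60, and without mature 2 it was 1.47. The other was HMGB15, which went from a TPM that rounded to 0 in intermediate 1 and 2 to 2.47, 7.39 and 5.22 TPMTMM in mature leaves (log2 change 1.35, adjusted p = 0.0145). Its call was lost without intermediate 1 or intermediate 2 (adjusted p up to 0.056). The hour at which each leaf was taken is not given in the sources used here.

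Several other named genes stood apart in mature 1. BXL2, a beta-xylosidase, had 36.4, 40.01 and 10.99 TPMTMM in intermediate and 276, 7.39 and 7.83 in mature leaves. PPA1, a pyrophosphatase, had 154, 156 and 57.9 and then 350.4, 61.5 and 52.2 TPMTMM. PLIP2, a plastid lipase, had 25.8, 25.5 and 9.99 and then 53.05, 11.1 and 10.4 TPMTMM. In all of these mature 1 was the highest of the 6 libraries, intermediate 1 and intermediate 2 followed, and the other 3 libraries were low, so the stages overlapped and none passed. NAC002, a stress-related NAC factor, showed the same order at 187, 191 and 102 and then 242, 137 and 109.6 TPMTMM.

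Over all unigenes, mature 1 was above all 3 intermediate libraries while mature 2 and mature 3 were below all of them in 319 cases, and the reverse held in 257 cases, together 4.92% of the unigenes. The same kind of opposition numbered 323 unigenes for mature 3 and 129 for mature 2. CATHB2, a cathepsin B protease, had 179, 174 and 116 TPMTMM in intermediate and 638, 255 and 210.1 in mature leaves. All mature libraries of CATHB2 were above the intermediate ones, but the spread kept the rise of 1.08 on the log2 scale from passing (SE 0.42, adjusted p = 0.0829), while without mature 3 it passed (adjusted p = 0.0486) and without mature 1 the log2 change was 0.59. With a term that sets young 3, intermediate 3, mature 2 and mature 3 against the other 5 libraries, a split seen in the data, CATHB2 passed at a log2 change of 1.40 (SE 0.17, adjusted p = 0.000225).

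**Figure D4:**
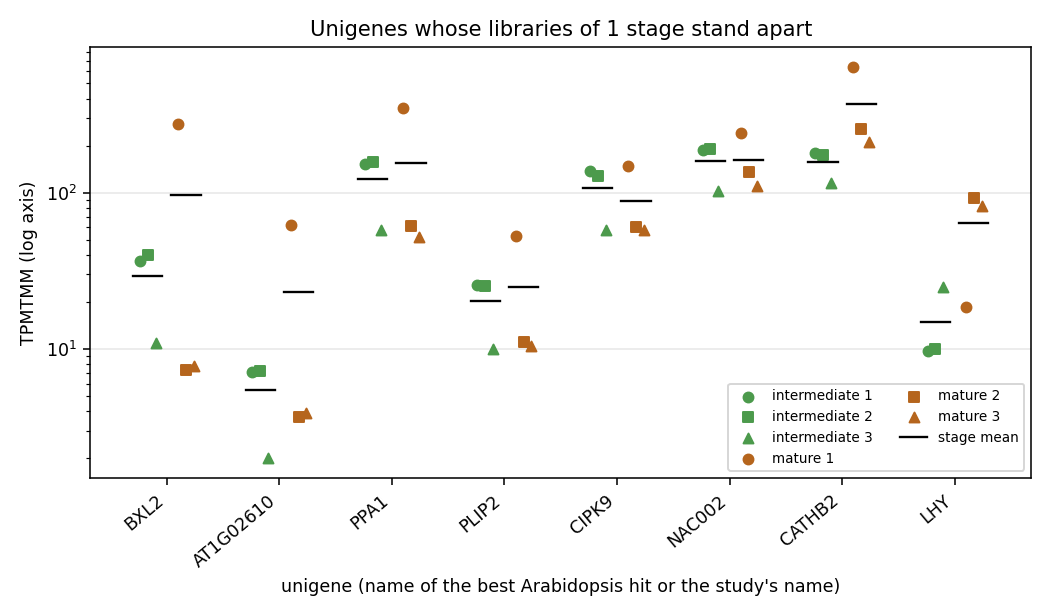
TPMTMM on a log axis of 8 unigenes in each intermediate (green) and mature (brown) library, with the marker shape giving the replicate number and the bar the mean of 3 libraries. These 8, which add AT1G02610 and CIPK9, a protein kinase, to the genes of the text, were chosen after their values were seen. Mature 1 (brown circle) lies far above mature 2 and mature 3 in all but LHY, where it lies below them, and intermediate 3 (green triangle) lies below intermediate 1 and 2 in all but LHY, where it lies above them.

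Among 11 genes of hormone response, stress and cell death 3 rose (16.1% of all unigenes did) and none fell, with a median log2 change of 0.59. With no scaling 1 of the 11 rose and 2 fell, and 1 of the 3 rises passed with each of the 6 libraries left out. PYL9, a receptor of abscisic acid, had 7.996, 7.27 and 10.99 TPMTMM in intermediate and 14.8, 25.8 and 26.1 in mature leaves (log2 change 1.23, SE 0.22, adjusted p = 0.00376), and it was the one that passed each time. AMC1, a metacaspase of the cell death pathway, had 11.5, 6.37 and 6.99 TPMTMM and then 23.4, 14.8 and 15.7 (log2 change 1.04, SE 0.30, adjusted p = 0.0269). Its call was lost without intermediate 2, intermediate 3 or mature 1 (adjusted p up to 0.0973). LFG4, related to an inhibitor of cell death, rose by 0.87 on the log2 scale with overlapping stages (adjusted p = 0.0391), and was lost without intermediate 1, intermediate 2, mature 2, mature 3 or any 1 young library (adjusted p up to 0.134).

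In lipid metabolism outside the cuticle 1 of 8 genes rose and 2 fell, beside 16.1% and 15.9% of all unigenes. The median log2 change of these 8 was 0.28. GPAT2, a glycerol-3-phosphate acyltransferase, had 22.2, 19.1 and 47.95 TPMTMM in intermediate and 1.23, 3.69 and 3.92 in mature leaves. The TPM of mature 1 rounded to 0. All mature libraries were far below the intermediate ones (log2 change -2.93, SE 0.41, adjusted p = 0.00111), and the log2 change lay between -3.18 and -2.54 with any 1 of the 9 libraries left out. Of 15 genes of the ubiquitin system and proteases 2 fell, close to the 15.9% of all unigenes that did, and none rose. The larger fall was that of APF2. It had 31.1, 31.8 and 36.96 TPMTMM and then 7.40, 12.3 and 11.7 (log2 change -1.60, SE 0.22, adjusted p = 0.000877). AT1G01180, a unigene known here only by its Arabidopsis locus, had 7.11, 8.18 and 6.99 TPMTMM and then 41.9, 20.9 and 20.9 (log2 change 1.70, SE 0.24, adjusted p = 0.00114). Of 6 genes of other transport 1 rose (16.1% of all unigenes did), namely FRO2, a ferric reductase of iron uptake. FRO2 had 3.55, 3.64 and 4.99 and then 9.87, 11.1 and 11.7 TPMTMM (log2 change 1.24, SE 0.13, adjusted p = 0.000311).

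**Figure D5:**
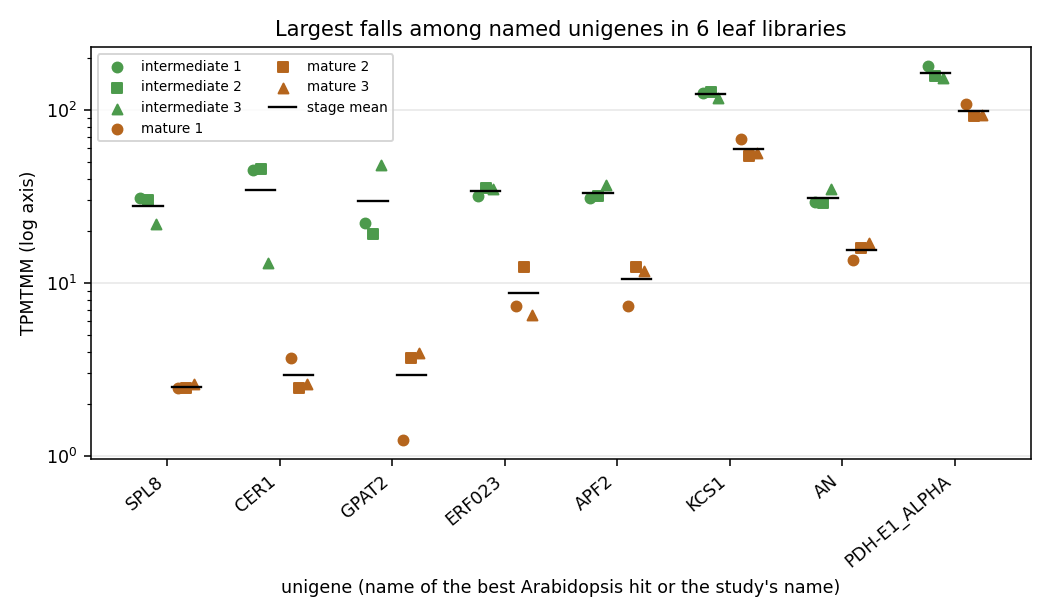
TPMTMM on a log axis of the 8 largest falls among named unigenes that averaged 10 TPMTMM or more, in each intermediate (green) and mature (brown) library, with the marker shape giving the replicate number and the bar the mean of 3 libraries. In each of the 8 every mature library lies below every intermediate one. The log2 changes run from -3.01 for SPL8 to -0.73 for PDH-E1_ALPHA, and CER1 and GPAT2 have the widest spread within a stage.

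Of 9 genes of ribosomes, tRNA and translation, 3 fell and none rose, beside 15.9% of all unigenes that fell (median log2 change -0.20). TRM82, of tRNA methylation, had 18.7, 20.005 and 20.98 TPMTMM in intermediate and 14.8, 14.8 and 13.1 in mature leaves (log2 change -0.46, SE 0.10, adjusted p = 0.00694) and passed with each of the 6 libraries left out. TAD1, a tRNA deaminase, and AT1G03687 did not pass in all of these fits (adjusted p up to 0.108 and 0.0723). TAD1 was lost without intermediate 1, intermediate 2 or mature 3, and AT1G03687 without intermediate 1, intermediate 3, mature 1 or mature 3. Of 10 genes of mRNA processing 1 rose and 1 fell, beside 16.1% and 15.9% of all unigenes. Over both groups, 4 of 19 fell, against 8 with the upper quartile and 15 with no scaling, where 2635 and 5647 of all unigenes fell. DCL1, which cuts microRNA precursors, went from 3.55, 2.73 and 3.996 to 8.64, 6.15 and 5.22 TPMTMM (log2 change 0.78, SE 0.18, adjusted p = 0.0107), and RRP4, of the RNA exosome, from 17.8, 18.2 and 21.98 to 12.3, 13.5 and 11.7 TPMTMM (log2 change -0.58, SE 0.14, adjusted p = 0.0128).

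None of 9 pentatricopeptide repeat proteins, which edit and process organelle RNA, passed, with log2 changes from -0.29 to 0.34, while 32.0% of all unigenes passed. Of 8 mitochondrial proteins 1 fell and none rose, beside 15.9% and 16.1% of all unigenes. The fall was that of PHB2, a prohibitin of the inner membrane, at 150.1, 138 and 164 TPMTMM in intermediate and 117, 128 and 97.9 in mature leaves (log2 change -0.40, SE 0.12, adjusted p = 0.0346). The PHB2 call was lost without intermediate 1, intermediate 3, mature 3 or young 2 (adjusted p up to 0.0923). Of both peroxisome genes PEX11C, of peroxisome division, rose from 99.5, 97.3 and 81.9 to 181, 130.5 and 114 TPMTMM (log2 change 0.58, SE 0.19, adjusted p = 0.0413), and the call was lost without any 1 intermediate library, mature 1, mature 2, young 1 or young 2 (adjusted p up to 0.115). In the 196 unigenes at the head of the table that the names cover, 23 rose and 32 fell, with a median log2 change of -0.03, close to that of all unigenes.

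The steepest changes of abundant unigenes, with a mean of 100 TPMTMM or more over the 6 libraries, were in ones without a name here. BS20649_c0_g1_i2 and BS6039_c0_g1_i1 reached that mean through the intermediate libraries alone. A mean over both stages lets in unigenes that are high in 1 stage only, so the choice itself favours steep changes. BS20649_c0_g1_i2 had 506, 539 and 271 TPMTMM in intermediate and 1.23, 3.69 and 2.61 in mature leaves (log2 change -6.97, SE 0.31, adjusted p = 5.97e-06), with a TPM that rounded to 0 in mature 1, so that the size rests in part on that floor. BS6039_c0_g1_i1 had 409, 369 and 154 TPMTMM and then 1.23, 1.23 and 2.61 (log2 change -6.77, SE 0.45, adjusted p = 3.01e-05), with TPM that rounded to 0 in mature 1 and mature 2. Intermediate 3 was the lowest intermediate library of both. BS25896_c0_g1_i7 rose from 81.7, 84.6 and 199 to 977, 1068 and 895 TPMTMM (log2 change 3.12, SE 0.35, adjusted p = 0.000396). BS21022_c2_g1_i1 rose further in TPMTMM (log2 change 3.63, adjusted p = 0.00103), but it is the exception among the unigenes, in that the factor of a library times its rounded TPM does not give its TPMTMM. Its TPM were 1267, 1229 and 1827 and then 3429, 3760 and 3842, a log2 change of 1.37 with no scaling.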

How the data were processed

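RNA of wild-type leaves was sequenced by the authors from stranded mRNA libraries, as paired reads. Trimmomatic served for trimming, Trinity for a joint assembly of the 9 libraries, RSEM for abundance, and a TPM minimum and CD-HIT-EST for removing redundancy. Tool versions and the strand setting of RSEM are not stated. The authors deposited TPM of 36907 unigenes, which sum to 1000000 per library, and TPMTMM of 11709 of these. In all but 1 unigene, TPMTMM was the rounded TPM, increased by 1 and multiplied by a factor of the library (tolerance 0.001). The study states the reads of each library, which were not used here. No file holds counts per unigene, so no interval for counting error is given, and edgeR, which the authors used, was not used here.

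Libraries were grouped by the leaf stage in the labels. Log2(TPMTMM + 1) of 11709 unigenes was fitted with limma 3.58.1 (R 4.3.3) with an intensity trend, in 1 fit of 9 libraries with stage as the only term, Benjamini-Hochberg adjustment and a threshold of 0.05. Adding 1 to TPMTMM for the log2 pulls changes of low unigenes toward 0. By contrast, the 1 that TPMTMM already holds is multiplied by the library factor. That factor was 0.888 to 0.999 in intermediate and 1.23 to 1.31 in mature libraries, which moves changes of low unigenes upward. Below a mean of 10 TPMTMM over intermediate and mature libraries, 357 unigenes rose and 661 fell. With TPM neither rounded nor increased by 1, times the factor, 309 of them rose and 902 fell. The fit was tested on simulated data. Single values per library had an exact permutation test (scipy 1.17.1), and figures used matplotlib 3.10.9. Named genes were the 14 unigenes that the study's text names, list members where a list is described, the 8 largest rises and 8 largest falls among named unigenes (mean of at least 10 TPMTMM, past the threshold, stages not overlapping), and the 2 largest of each among unnamed ones with a mean of at least 100 TPMTMM. Both means are over the 6 libraries, which favours steep changes, since unigenes that are high in 1 stage only can pass. CER1, SPL8 and GPAT2 passed through the intermediate libraries alone. The members and lists were chosen with earlier results of these data known. Alternatives were other scalings, added values, filters, samples and a replicate block, and 2 alternatives and the contrast of the steps were chosen after seeing the data. The annotation used is the first part of a longer sheet, so lists are incomplete, and the authors' fold changes in it were not used. The list named other, with 52 unigenes (5 rose and 5 fell), is not described further.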

Additional observations from a re-analysis of the deposited data

Results flagged for a closer look

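For 7 unigenes named above the change from intermediate to mature leaves differed from the change from young to intermediate leaves by a test of the difference itself (limma, 1 contrast in the same fit, adjusted over 11709 unigenes, of which 87 passed with a higher and 178 with a lower second step). The contrast was chosen after seeing the data, the 2 steps share the intermediate libraries with opposite signs, and every value is the second log2 change minus the first. SPL8 fell in both steps, and the difference was -1.99 (SE 0.23, adjusted p = 0.00469). ERF023 had 0.58 in the first step and -1.89 in the second, a difference of -2.48 (SE 0.35, adjusted p = 0.0105). GPAT2 had 0.71 and then -2.93, a difference of -3.64 (SE 0.72, adjusted p = 0.0384). GPAT4, of cutin synthesis, had 0.36 and then -0.61, a difference of -0.97 (SE 0.19, adjusted p = 0.0399). In GPAT2 and GPAT4 intermediate 3 was the highest intermediate library, at 47.95 and 171 TPMTMM. Intermediate libraries enter this contrast with a negative sign, and it was not fitted without intermediate 3. PDH-E1_ALPHA had 0.20 and then -0.73, a difference of -0.93 (SE 0.19, adjusted p = 0.0482). Among unigenes without a name, BS20649_c0_g1_i2 differed by -5.31 (SE 0.54, adjusted p = 0.00272) and BS6039_c0_g1_i1 by -6.58 (SE 0.78, adjusted p = 0.0053), and in both intermediate 3 stood below intermediate 1 and 2.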

How the results depend on the processing

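Against 1886 rises and 1858 falls, TPM with no scaling gave 772 and 5647, all 36907 unigenes of the TPM table times the library factor gave 2854 and 3450 (chosen after seeing the data), and a mean of at least 10 TPMTMM left 1224 falls of 7993 unigenes tested. Against 582 rises and 551 falls of 2-fold or more, TPM with no scaling gave 270 and 1518, the upper quartile 846 falls, 5 added before the log2 282 falls, the mean of at least 10 TPMTMM 297 falls, and all unigenes 1658 and 1900. With 1 library left out, rises ranged from 1237 to 2041, falls from 1286 to 1937, and those of 2-fold or more from 457 to 670 and from 510 to 582.

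Deviations from the stage means were correlated, across unigenes, between intermediate and mature libraries of the same replicate number. The values were 0.59 for number 1, -0.48 for number 2 and 0.44 for number 3, and intermediate 3 correlated better with mature 2 (0.59). Deviations within a stage cancel out, so these values cannot decide whether replicate numbers pair the libraries. With a replicate block, 1451 rose and 1308 fell in the 6 libraries and 2117 and 2031 in all 9. Replicate numbers are balanced over the stages, so the block alters only the spread and cannot alter a log2 change or its direction.

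Of 74 genes with a log2 change in the text, 57 past the threshold, the robust moderation, the fit with no intensity trend and 0.5 added changed no call. The 6 libraries fitted alone took 10 below the threshold, the replicate block in them 12, and TPM with no scaling 15. TPM with no scaling also turned 8 that had not passed: cMDH1 -0.14, DTC -0.32, CPX1 -0.12, PSB27-1 -0.14, CLPP5 -0.18, AT1G01320 -0.16, SBT1.2 -0.13 and BXL2 -0.41, which follows from the common shift of -0.43. BXL2 (0.05) also turned with the upper quartile (-0.079) and with unrounded TPM (-0.015, over 11709 and over all unigenes). PLIP2 (-0.02) was 0.012 with 5 added. The term for the split of young 3, intermediate 3, mature 2 and mature 3 from the other 5 libraries, seen in the data, gave 2745 rises and 2641 falls. It turned PLIP2 to 0.55 (limma adjusted p = 0.0289), NAC002 to 0.29 (0.0428) and PPA1 to 0.49 (0.149), and took cMDH1 (0.031), KCS2 (0.0315), HTR12 (0.00642) and CATHB2 (0.000225) past the threshold. With 1 library left out, SAND ranged from -0.074 to 0.016, PLIP2 from -0.75 to 0.37, BXL2 from -1.62 to 0.91, NAC002 from -0.33 to 0.24 and PPA1 from -0.97 to 0.39. The reads behind single values, and so the counting error of low ones, are not in the values used.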

Other observations

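Unigenes of the TPM table outside the 11709 tested numbered 25198 and held 37.4 to 41.1% of the TPM of intermediate and 38.6 to 45.9% of that of mature libraries. In the fit of all unigenes, chosen after seeing the data, 5.78% of them rose and 7.11% fell. The most abundant, BS4166_c2_g1_i22, had 11994, 19009 and 38869 TPM in intermediate and 10469, 15334 and 46997 in mature leaves, overlapping and not past the threshold (limma, adjusted p = 0.82). Of the 5 most abundant, 2 rose. BS54705_c1_g1_i2 had 10658, 10362 and 14914 TPM and then 25085, 25558 and 19080.2 (log2 change 1.40, SE 0.38, limma adjusted p = 0.0343), and BS42966_c0_g1_i2 had 5558, 5327 and 7498 and then 12374, 12285 and 11448 (1.42, SE 0.29, limma adjusted p = 0.0107).

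Other unigenes of the same assembly gene did not always move with the one named. For CAb2, whose unigene rose, a second unigene of that assembly gene (BS7750_c0_g1_i7) had 77.2, 75.6 and 59.4 TPM in intermediate and 29.6, 35.2 and 57.1 in mature leaves. For DTC a further unigene (BS12288_c0_g1_i3) had 27.3 to 33.9 TPM and then 5.59 to 19.5, with no overlap. Neither is in the table tested, and how reads were split among such near copies was not examined. Of 540 assembly genes with more than 1 tested unigene, 20 had a rise and a fall, 120 rises alone and 108 falls alone.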
